A study of Homo sapiens with 21 samples.

Results

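The human mitochondrial genome encodes 37 genes, and all 37 were present among the 58735 genes of the count table, where they were identified as the rows placed on chromosome MT. They comprise 13 messenger RNAs (mRNAs), 2 ribosomal RNAs (rRNAs) and 22 transfer RNAs (tRNAs). No measured value was used to choose them. RNA was sequenced from cells labelled HepG2, a human liver tumour line, after 24 h in serum-free DMEM that was given after a wash with PBS. The control group received this medium alone (0 µM), and the other 6 groups received coumarin, a plant benzopyrone dissolved in the medium, at 0.001, 0.01, 0.1, 1, 10 or 100 µM. Each group held 3 libraries, which the labels call biological replicates, so that p-values measure the spread between these 21 libraries. The marker check went against the cell label: all 16 hepatocyte markers examined averaged under 1 CPM (counts scaled to a common library size), 5 of them (ALB, TTR, APOC3, FGB and RBP4) had no count in any library (a count of 0 allows up to 3 counts), and the summed level of all 16 was 0 to 0.365 CPM per library. Gene counts totalled 26984563 to 43375429 per library. Among the measures used to scale libraries, 3 libraries stood apart. Control replicates 2 and 3 had the largest TMM scaling factors, 1.040 and 1.043, against 0.9999 in control replicate 1, and 0.01 µM replicate 3 had the smallest, 0.972. The library total behind the deposited FPKM (a level scaled by gene length and library total) exceeded the summed gene counts by 8.73% and 8.89% in the same 2 controls, by 4.07% in control replicate 1, and by 1.05% to 5.75% in treated libraries.

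Mitochondrial DNA is a small circle from which both strands are transcribed as long precursors. Enzymes cut out the tRNAs that lie between most of the other genes, and this releases the mRNAs and rRNAs. The mRNAs encode subunits of respiratory complexes I, III and IV and of the ATP synthase, while the rRNAs and tRNAs serve the translation of those mRNAs inside the organelle. Most mitochondrial mRNAs carry a short poly(A) tail and mature tRNAs end in CCA. The libraries were made from RNA taken up by poly(dT) beads, so that the counts describe RNA recovered in this way.

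By the strand given in the table, 28 of the 37 genes lie on the plus strand of the reference (12 mRNAs, 2 rRNAs and 14 tRNAs, by convention the heavy-strand genes). The other 9 lie on the minus strand: MT-ND6 and the tRNA genes MT-TQ, MT-TA, MT-TN, MT-TC, MT-TY, MT-TS1, MT-TE and MT-TP. The coordinates, build GRCh38, were the same in GENCODE release 29 for 37 of 37 genes. Neighbouring genes share bases at 5 places. MT-ATP8 and MT-ATP6 overlap by 46 bases, MT-ND4L and MT-ND4 by 7, MT-TI and MT-TQ by 3, and MT-TC with MT-TY and MT-ATP6 with MT-CO3 by 1 each. How reads over shared bases were counted, and whether counting used strand, is not given in the sources used here. Reads from a gene and from RNA of its opposite strand therefore cannot be told apart, and the levels of overlapping genes are uncertain to that extent. The ends and starts of the 2 overlapping mRNA pairs are shown because the members of each pair differed in the data described below. Capitals mark the shared bases, and the stretches are MT:8513-8572, MT:8527-8586, MT:10737-10766 and MT:10760-10789, plus strand, read from GENCODE transcripts.
MT-ATP8: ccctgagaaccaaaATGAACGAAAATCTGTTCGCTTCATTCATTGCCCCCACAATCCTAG
MT-ATP6: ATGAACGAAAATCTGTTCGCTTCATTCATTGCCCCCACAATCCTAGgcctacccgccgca
MT-ND4L: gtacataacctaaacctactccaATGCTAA
MT-ND4: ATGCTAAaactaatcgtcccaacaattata
The shared 46 bases made up 22.2% of MT-ATP8 and 6.75% of MT-ATP6, and the shared 7 bases 2.36% of MT-ND4L and 0.508% of MT-ND4.

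Of the tRNA genes, 7 are shown, the 3 with the most counts (MT-TN, MT-TC and MT-TP) and the other 4 that changed at 100 µM against control. Sequences are those of GENCODE transcripts, 5′ to 3′ on the strand of the gene, with the anticodon in capitals. The anticodon was located as the triplet flanked by a stem in which at least 4 of 5 base pairs formed.
MT-TN: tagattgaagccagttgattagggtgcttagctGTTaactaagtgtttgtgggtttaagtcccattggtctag
MT-TC: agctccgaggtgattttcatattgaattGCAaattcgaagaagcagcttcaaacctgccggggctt
MT-TP: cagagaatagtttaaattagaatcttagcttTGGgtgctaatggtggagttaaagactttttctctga
MT-TL1: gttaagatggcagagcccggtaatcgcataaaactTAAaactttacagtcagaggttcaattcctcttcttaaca
MT-TG: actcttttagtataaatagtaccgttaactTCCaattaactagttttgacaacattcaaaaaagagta
MT-TR: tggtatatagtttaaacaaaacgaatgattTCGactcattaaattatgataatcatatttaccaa
MT-TL2: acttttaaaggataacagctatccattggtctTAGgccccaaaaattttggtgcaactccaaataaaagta
MT-TN (MT:5657-5729, minus strand) encodes the tRNA for asparagine, MT-TC (MT:5761-5826, minus) that for cysteine and MT-TP (MT:15956-16023, minus) that for proline. MT-TL1 (MT:3230-3304) and MT-TL2 (MT:12266-12336) encode the tRNAs that read the 2 codon families of leucine, MT-TG (MT:9991-10058) that for glycine and MT-TR (MT:10405-10469) that for arginine, all 4 on the plus strand. MT-TN and MT-TC are separated by 31 bases, where the origin of light-strand replication lies.

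Levels were compared between genes as CPM per kb of gene length, averaged over the 21 libraries. MT-CO1, the catalytic subunit of cytochrome oxidase (complex IV), was highest at 9725 ± 674 CPM per kb (SD, n = 21), followed by MT-CO2 at 9447 ± 794 CPM per kb (SD, n = 21) and MT-CO3 at 8739 ± 786 CPM per kb (SD, n = 21), the other mitochondrially encoded subunits of that complex. The range of MT-CO1 over libraries overlapped those of MT-CO2 and MT-CO3. MT-ND4L, a complex I subunit, reached 7788 CPM per kb, MT-ATP6 of the ATP synthase 7429, and MT-ND4 of complex I 6196. The other complex I mRNAs were lower, at 3096 CPM per kb for MT-ND3, 2744 for MT-ND6, 2258 for MT-ND2, 1896 for MT-ND5 and 1887 for MT-ND1. MT-CYB, the mitochondrially encoded subunit of complex III, stood among them at 2675. MT-ATP8, the smaller of the 2 mitochondrially encoded subunits of the ATP synthase, was lowest at 226 ± 60.2 CPM per kb (SD, n = 21), so that the mRNAs spanned 42.95-fold with it and 5.15-fold without it. All 13 mRNAs had the same rank by the deposited FPKM. FPKM scales the same counts by the same gene lengths, so the equal ranks are no separate check.

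**Figure D1:**
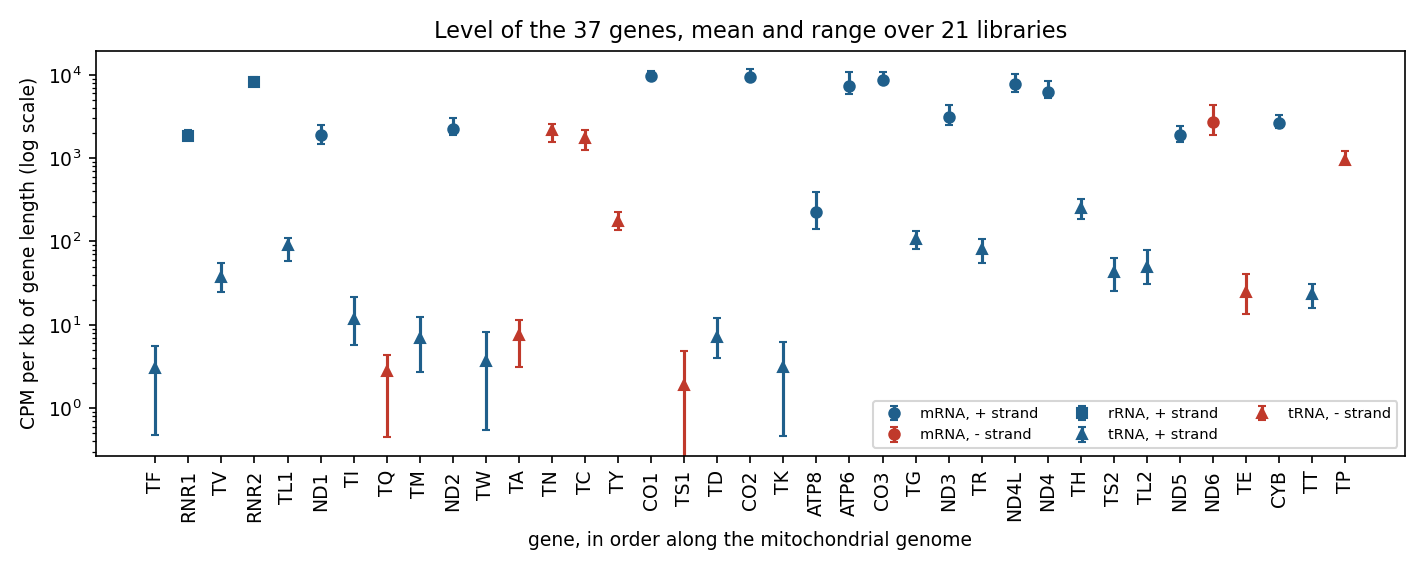
Level of each of the 37 genes in CPM per kb of gene length (log axis), in order along the mitochondrial genome. Points are means and bars the range over 21 libraries, circles are mRNAs, squares rRNAs and triangles tRNAs, blue on the plus and red on the minus strand. The 3 cytochrome oxidase mRNAs lie at the top, MT-ATP8 is the lowest mRNA at 226, and MT-TN, MT-TC and MT-TP stand above the other tRNAs; the bar of MT-TS1 reaches 0, which a log axis cannot show.

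Genes of a shared transcript did not have equal counted levels. MT-ATP8 and MT-ATP6, which are known to stay together on 1 mature mRNA, differed most: MT-ATP8 per kb was 3.06% ± 0.682 (SD, n = 21) of MT-ATP6. Since the counting of reads that touch both genes is not given, a difference in RNA cannot be told apart from one of counting. MT-ND4L and MT-ND4, which likewise share an mRNA, were close, with MT-ND4L per kb at 1.26 ± 0.1402 (SD, n = 21) times MT-ND4. The 2 rRNAs are neighbours at the start of the heavy-strand transcript, separated by MT-TV. MT-RNR2, the 16S rRNA of the large ribosomal subunit, stood at 8226 ± 424 CPM per kb (SD, n = 21), and MT-RNR1, the 12S rRNA of the small subunit, at 1825 ± 136 CPM per kb (SD, n = 21), a ratio of 4.52 ± 0.247 (SD, n = 21). MT-ND6, the only mRNA on the minus strand, was 1.44 ± 0.128 (SD, n = 21) times as high per kb as MT-ND5, whose gene lies next to it on the plus strand.

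The counted levels of the tRNA genes were low and unequal. Since poly(dT) beads selected the RNA, they describe RNA recovered over these genes and not the amount of mature tRNA. Their median was 30.96 CPM per kb, against 3096 for the median mRNA. MT-TN reached 2169, MT-TC 1744 and MT-TP 959 CPM per kb, above MT-ATP8, and these 3 minus-strand genes held 80.4% to 87.4% of all tRNA counts in each library. MT-TH (253 CPM per kb) and MT-TY (175) came next. The 5 lowest were MT-TW (3.69), MT-TK (3.16), MT-TF (3.05), MT-TQ (2.77) and MT-TS1 (1.88). The order was not one of strand, since MT-TQ and MT-TS1 are also on the minus strand. The 22 tRNAs together had 9727 to 18388 counts per library, and 13 of them averaged under 100 counts, which limits what can be seen for single tRNAs.

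The 37 genes took 6.695% to 8.75% of all gene counts. In the controls the share was 7.36%, 6.89% and 6.79%, a mean of 7.01% ± 0.303 (SD, n = 3). At 100 µM it was 7.09%, 6.74% and 7.15%, a mean of 6.996% ± 0.221 (SD, n = 3), which lies within the range of the controls. At 10 µM it was 6.695%, 6.901% and 6.75%, with a mean of 6.78% ± 0.106 (SD, n = 3). The groups at 0.001, 0.01, 0.1 and 1 µM had means of 7.25% ± 0.241 (SD, n = 3), 7.76% ± 0.886 (SD, n = 3), 7.39% ± 0.263 (SD, n = 3) and 7.42% ± 0.423 (SD, n = 3). The mean at 0.01 µM includes the library with the highest share, replicate 3 at 8.75%, and was 7.26% ± 0.304 (SD, n = 2) without it. The libraries at 10 µM were each below every library at 0.001 to 1 µM, while those at 100 µM overlapped them.

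**Figure D2:**
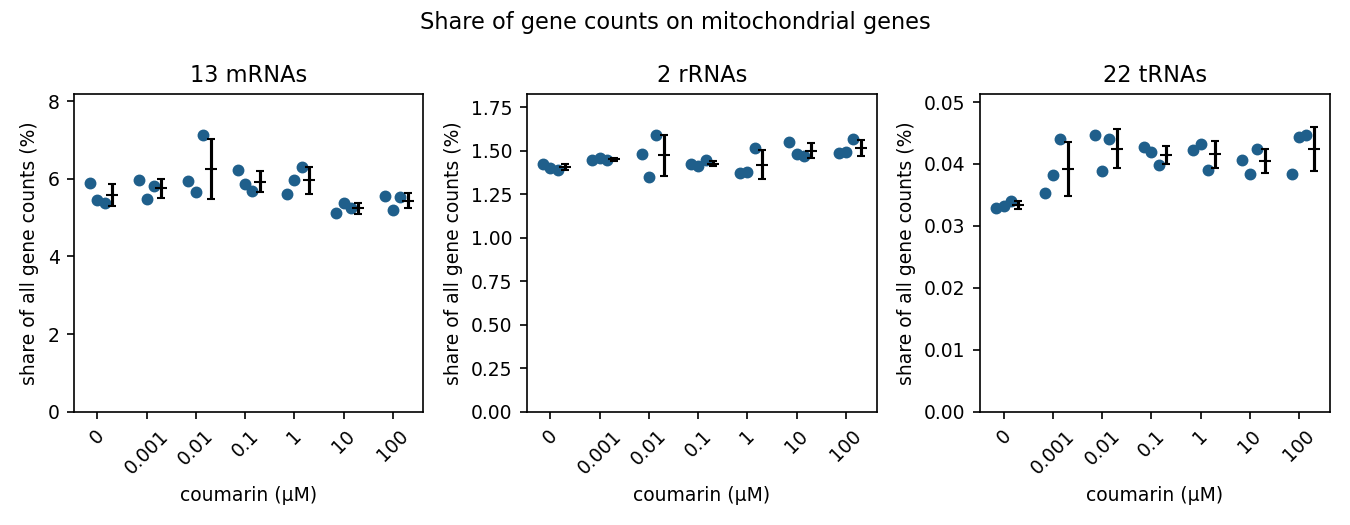
Share of all gene counts (percent) taken by the 13 mRNAs, the 2 rRNAs and the 22 tRNAs at each coumarin dose (µM). Points are libraries, with the mean ± SD (n = 3) beside them; the tRNA share is lowest in the 3 control libraries, and the mRNA share is highest in 0.01 µM replicate 3, at 7.12%.

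By class, the shares were as follows. The mRNA share was 5.58% ± 0.287 (SD, n = 3) in controls, 6.24% ± 0.773 (SD, n = 3) at 0.01 µM, 5.24% ± 0.139 (SD, n = 3) at 10 µM and 5.44% ± 0.202 (SD, n = 3) at 100 µM. The rRNA share was 1.405% ± 0.0171 (SD, n = 3) in controls. It was 1.498% ± 0.0429 (SD, n = 3) at 10 µM and 1.52% ± 0.0459 (SD, n = 3) at 100 µM, where all 6 libraries lay above all 3 controls. So did the libraries at 0.001 µM, with a mean of 1.449% ± 0.00641 (SD, n = 3). Those at 0.01, 0.1 and 1 µM overlapped the controls, with means of 1.472%, 1.426% and 1.420% (n = 3 each). The highest rRNA share, 1.587%, was that of 0.01 µM replicate 3. The ratio of rRNA to mRNA counts was 0.252 ± 0.00964 (SD, n = 3) in controls and 0.242 ± 0.0115 (SD, n = 12) at 0.001 to 1 µM. It was 0.286 ± 0.01502 (SD, n = 3) at 10 µM and 0.279 ± 0.0107 (SD, n = 3) at 100 µM, and each of those 6 libraries exceeded all 15 at the lower doses and in controls. The tRNA share was 0.0328%, 0.0332% and 0.03401% in the controls and lay above that range in every treated library, 0.0353% being the lowest. These shares are sums over the genes and were given no test. In bulk RNA, fewer cells of a kind and less RNA per cell cannot be told apart.

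Single genes were tested with edgeR over all 16699 genes that passed the filter on low counts, which 34 of the 37 mitochondrial genes did. MT-TF, MT-TQ and MT-TS1 did not. A gene is said to have risen or fallen where its adjusted p was under 0.05. At 0.001 µM 1 of the 34 rose and none fell, while 1.53% of all tested genes changed (1.34% rose and 0.192% fell). At 0.01 µM 10 rose and none fell, against 5.86% of all tested genes that changed (4.77% rose and 1.09% fell). At 0.1 µM 7 rose and none fell, against 6.45% (5.02% rose and 1.43% fell). At 1 µM 1 rose and none fell, against 2.01% (1.57% rose and 0.431% fell). At 10 µM 4 rose and 1 fell, against 2.62% (1.74% rose and 0.874% fell). At 100 µM 7 rose and 3 fell, 29.4% of the 34, which is near the 27.3% of all tested genes that changed (14.4% rose and 12.9% fell). For the mean of the treated groups 8 rose and 1 fell, against 8.43% (5.74% rose and 2.69% fell). The test of all 7 groups at once called 15 of the 34, or 44.1%, against 30% of all tested genes. Where groups are said not to overlap, the same held for 40.8% of all tested genes at 100 µM against control. It held for 1.53% between the 18 treated libraries and the controls, and for 21.3% at 100 µM against the 12 libraries of the lower doses. No such share was computed for 10 µM against control or against the lower doses, so statements of no overlap at 10 µM have none beside them. The median log2 change of the 34 genes was 0.27 at 0.01 µM, -0.0041 at 100 µM and 0.11 for all treated groups, against -0.0060, -0.0079 and -0.0036 over all tested genes. These comparisons share the same 3 controls. Without control replicate 2 or 3 the number called was 6 and 6 at 0.01 µM, 1 and 1 at 0.1 µM, 0 and 0 at 1 µM (8 and 7 at an unadjusted p under 0.05), 2 and 1 at 10 µM, and 4 and 2 for all treated groups. Libraries of the doses moved it too: without replicate 3 it was 6 at 0.01 µM, without replicate 1 or 2 it was 1 or 2 at 0.1 µM, and without any 1 of the 6 libraries compared it was 1 to 3 at 10 µM. The single call at 0.001 µM became 2 without control replicate 1 or 2 or replicate 1 of the dose, and 3 without replicate 2. That at 1 µM became 4 without control replicate 1, 2 without replicate 3, and 0 without replicate 1 or 2 (12 and 11 at an unadjusted p under 0.05). With control replicate 1 as the only control, edgeR called 0, 1, 0, 0 and 0 at 0.001 to 10 µM, 3 at 100 µM and 0 for all treated groups. In that fit 5, 6, 4, 5, 9, 11 and 7 genes, in the same order, had an unadjusted p under 0.05. The spread then comes from the treated groups, and a lost call does not show that a change is absent.

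The mRNAs with the largest changes from control were short ones. MT-ATP8 (207 bases) had 33.6, 28.9 and 32.1 CPM in the controls and 54.1, 47.5 and 59.2 CPM at 100 µM, without overlap, and rose by 0.77 ± 0.19 (SE) on the log2 scale (edgeR adjusted p = 0.00629). It also rose at 0.01 µM, where it had 55.7, 48.8 and 82.3 CPM (log2 change 0.98 ± 0.19 (SE), edgeR adjusted p = 0.00528), and at 0.1 µM, with 62.8, 52.3 and 52.5 CPM (log2 change 0.82 ± 0.19 (SE), edgeR adjusted p = 0.0172). At 1 µM its values of 34.2, 37.7 and 42.7 CPM were close to the controls and did not pass (log2 change 0.28, edgeR adjusted p = 0.552), so that the change did not follow dose. All 18 treated libraries lay above all 3 controls, and for the treated mean the log2 change was 0.63 ± 0.15 (SE) (edgeR adjusted p = 0.0176). That call was lost without control replicate 2 or without control replicate 3. The call at 0.1 µM was lost without either of those controls or without 0.1 µM replicate 1, while those at 0.01 and 100 µM were kept without each library compared. MT-ATP8 held 878 to 2528 counts per library.

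MT-ND4L (297 bases) behaved similarly against control. It had 1868, 1869 and 1823 CPM in the controls and 2297, 2632 and 2794 CPM at 100 µM, and rose by 0.47 ± 0.10 (SE) on the log2 scale (edgeR adjusted p = 0.00157). It rose at 0.01 µM (log2 change 0.48) and 0.1 µM (log2 change 0.40) as well, the latter a call lost without control replicate 2, control replicate 3, or 0.1 µM replicate 1 or 2. Every treated library, from 2016 CPM upward, exceeded all 3 controls (treated mean, log2 change 0.36 ± 0.08 (SE), edgeR adjusted p = 0.00725), a call lost without control replicate 3. MT-ND3 (346 bases), another complex I subunit, rose at 0.01 µM (log2 change 0.46 ± 0.12 (SE), edgeR adjusted p = 0.0426), and that call was lost without any 1 of 5 of the 6 libraries compared, among them 0.01 µM replicate 3. At 100 µM it had 1071, 1065 and 1226 CPM against 948, 868 and 884 in the controls (log2 change 0.32, edgeR adjusted p = 0.0758). It did not pass there in that fit, but passed in 5 of 14 other settings, namely the replicate block, the fit of only the groups compared, DESeq2 and filtered limma with either pseudocount, with adjusted p from 5.89e-05 to 0.486 over all alternatives and libraries left out.

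These 3 mRNAs are the shortest of the 13, and they also had the 3 largest log2 changes for the treated mean and at 0.01, 0.1 and 100 µM. Over the 13 mRNAs, Spearman's rho between gene length and log2 change was -0.63 for the treated mean and -0.49 at 100 µM, and from -0.35 to -0.54 at the other doses against control. At 0.001, 1 and 10 µM only 2 of the shortest 3 were among the largest 3. Against the lower doses rho was -0.49 at 100 µM but 0.11 at 10 µM, where none of the shortest 3 was among the largest 3, and it was -0.31 for the slope on dose. This is a description over genes that share libraries and in part transcripts. The partners on the same mRNA differed in value. MT-ATP6 had 5805, 4869.7 and 4695 CPM in the controls and 4887, 4043 and 4559.9 at 100 µM, with a log2 change of -0.19 ± 0.13 (SE) (edgeR adjusted p = 0.321), and MT-ND4 had a log2 change of 0.00 ± 0.09 (SE) (edgeR adjusted p = 0.981). Accordingly, MT-ATP8 per kb moved from 2.04% ± 0.186 (SD, n = 3) of MT-ATP6 in controls to 3.93% ± 0.3202 (SD, n = 3) at 100 µM, and MT-ND4L from 1.08 ± 0.0961 (SD, n = 3) to 1.49 ± 0.196 (SD, n = 3) times MT-ND4. In neither pair did the ratios of the 3 libraries at 100 µM overlap those of the controls. The lower doses were shifted as well. At 0.001 to 1 µM the ratios were 3.05% ± 0.565 and 1.24 ± 0.0480 (SD, n = 12 each). At 10 µM they were 3.21% ± 0.1502 and 1.298 ± 0.0434 (SD, n = 3 each). Every treated library lay above the controls, the lowest narrowly (2.252% against 2.248%, and 1.1424 against 1.1423). For MT-ND4L, 100 µM replicate 1 stood at 1.266, within the range of 1.142 to 1.283 at 0.001 to 1 µM. The difference between partners was given no test of its own, and how reads that touch both genes were counted is not given.

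**Figure D3:**
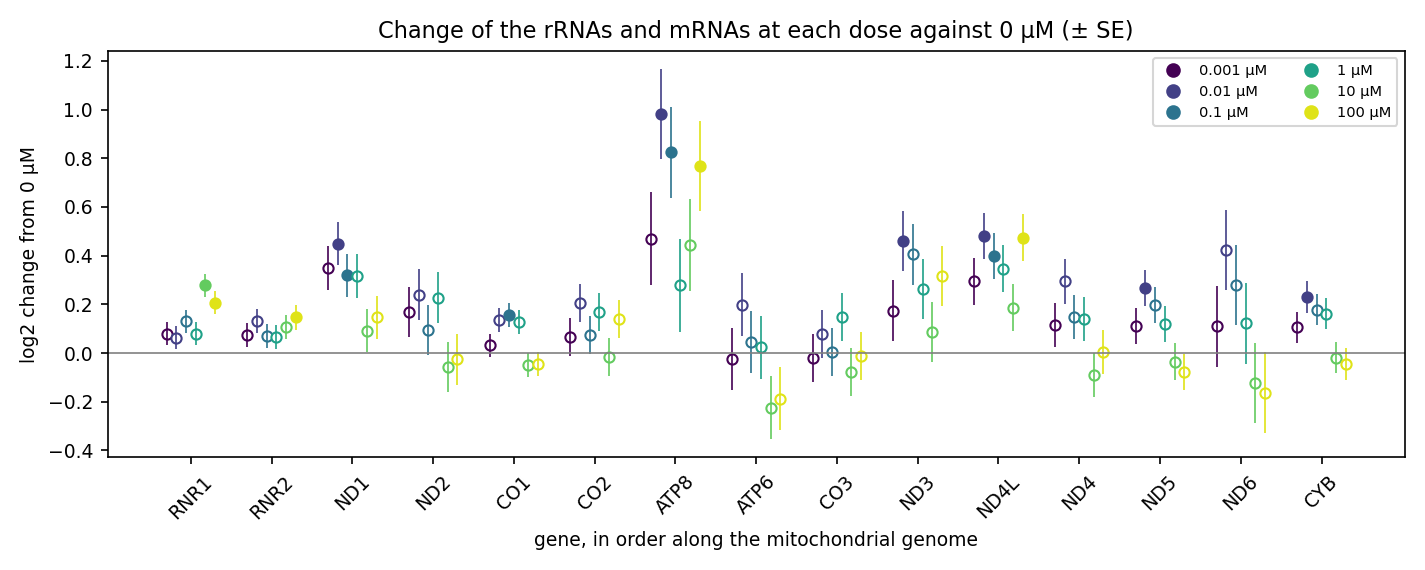
Log2 change from 0 µM (± SE, edgeR) of the 2 rRNAs and 13 mRNAs in genome order, 1 colour per coumarin dose. Filled points passed an adjusted p of 0.05 and open points did not; MT-ATP8 reaches 0.98 at 0.01 µM and its partner MT-ATP6 lies at -0.19 at 100 µM.

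Of the longer complex I mRNAs, MT-ND1 rose against control at 0.01 and 0.1 µM and for the treated mean. It had 1695, 1429 and 1439 CPM in the controls, 1969.6, 1856 and 2405 at 0.01 µM and 1722, 1618 and 1709 at 100 µM, and the log2 change of the treated mean was 0.28 ± 0.07 (SE) (edgeR adjusted p = 0.0208), a call lost without control replicate 2 or 3. Its call at 0.1 µM was lost without any 1 of 5 of the 6 libraries compared. Control replicate 1 lay inside the range of the treated libraries. MT-ND5 rose at 0.01 µM alone (log2 change 0.27 ± 0.07 (SE), edgeR adjusted p = 0.0379), as did MT-CYB (log2 change 0.23 ± 0.06 (SE), edgeR adjusted p = 0.0308), and MT-CO1 rose at 0.1 µM alone (log2 change 0.16 ± 0.05 (SE), edgeR adjusted p = 0.0444). The calls of MT-ND5 and MT-CYB were lost without 0.01 µM replicate 3, the call of MT-CO1 without 0.1 µM replicate 1 or 2, and all 3 calls without control replicate 2 or 3. That of MT-ND5 was also lost without control replicate 1 or 0.01 µM replicate 1. MT-ND2, MT-CO2, MT-CO3, MT-ATP6, MT-ND4 and MT-ND6 passed in no comparison with 0 µM in the fit of all 7 groups. Their log2 changes at 100 µM were -0.03, 0.14, -0.01, -0.19, 0.00 and -0.16, and those of MT-ND2, MT-CO2, MT-CO3 and MT-ND4 turned direction under other scalings or library choices. MT-CO2 passed at 100 µM without control replicate 1 (edgeR adjusted p = 0.0462), and MT-CYB for the treated mean without that library or with no filter.

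A second reference that does not use the controls is the set of 12 libraries at 0.001 to 1 µM. Against these, 1 mitochondrial gene rose and 10 fell at 100 µM, 32.4% of those tested, near the 33.1% of all tested genes that changed (16.6% rose and 16.5% fell). At 10 µM 2 rose and 3 fell, 14.7% of those tested against 2.62% of all (0.725% rose and 1.9% fell). At 100 µM the members were on average on the lower side: the median log2 change was -0.19 over the 34 genes and 0.0035 over all tested genes. Leaving out 100 µM replicate 3 brought the calls at 100 µM from 11 to 6, and leaving out 10 µM replicate 1 those at 10 µM from 5 to 0 (12 at an unadjusted p under 0.05, edgeR). The latter were 2 without 10 µM replicate 2, 3 without 10 µM replicate 3, 0.1 µM replicate 1 or 1 µM replicate 1, and 8 and 9 without 0.01 µM replicate 2 and 3.

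Among mRNAs, 5 of 13 fell at 100 µM against these libraries and none rose. MT-CO1 had 14523, 13453 and 14095 CPM at 100 µM and ranged from 14141 to 17285 CPM with a median of 15479 in the 12 lower-dose libraries, a log2 change of -0.16 ± 0.04 (SE) (edgeR adjusted p = 0.00171), with some overlap. MT-CYB had 2973, 2646 and 2716 CPM against a range from 2885 to 3793 CPM with a median of 3189 (log2 change -0.21 ± 0.05 (SE), edgeR adjusted p = 0.00196), again with overlap. MT-ND5 had 3274, 2819.6 and 3095 CPM, all below the range from 3298 to 4446 CPM with a median of 3606 (log2 change -0.25 ± 0.06 (SE), edgeR adjusted p = 0.00248). These 3 calls were kept in every alternative run and without each library. MT-ND6 had 1345, 1004 and 1237 CPM and ranged from 1230.1 to 2307 CPM with a median of 1537 at the lower doses (log2 change -0.40 ± 0.13 (SE), edgeR adjusted p = 0.0337), and MT-ND1 had 1722, 1618 and 1709 CPM (log2 change -0.21 ± 0.07 (SE), edgeR adjusted p = 0.0312). Both calls were lost without 100 µM replicate 2 or 3, that of MT-ND6 also without 1 µM replicate 2, and that of MT-ND1 also without 100 µM replicate 1 or 0.001 µM replicate 3. Against the controls, the same 5 mRNAs had log2 changes at 100 µM of -0.04, -0.04, -0.08, -0.16 and 0.15 in that order. None passed, and those of MT-CYB and MT-ND1 turned direction with other choices of control libraries.

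At 10 µM MT-CO1 and MT-CYB fell against the lower doses. MT-CO1 had 14028, 14019 and 13851 CPM, below all 12 libraries (log2 change -0.16 ± 0.04 (SE), edgeR adjusted p = 0.0152), and MT-CYB had 2739, 2878 and 2862 CPM, below them as well (log2 change -0.19 ± 0.05 (SE), edgeR adjusted p = 0.04700). The MT-CYB call was lost without any 1 of 10 of the 15 libraries compared. All 13 mRNAs had a negative log2 change here, between -0.36 and -0.13, as did 8075 of all 16699 tested genes. The mRNAs share libraries and varied together within groups, so their common sign is not 13 separate observations. In the slope on log10 dose over the 18 treated libraries, 9 members passed, 26.5% of those tested against 21.5% of all genes; 1 rose and 8 fell, against 10% and 11.5% of all genes. MT-ND1, MT-ND4, MT-ND5, MT-ND6 and MT-CYB fell, with MT-ND5 at -0.0575 ± 0.0156 (SE) on the log2 scale per 10-fold of dose (edgeR adjusted p = 0.0112) and MT-ND1 at -0.0615 ± 0.0148 (SE) (edgeR adjusted p = 0.00491). Those 2 calls were kept without each library. The slope of MT-ND6 (edgeR adjusted p = 0.0465) was lost in 15 of the 18 fits without 1 library and that of MT-ND4 (edgeR adjusted p = 0.0379) in 11, while that of MT-CYB was lost without 100 µM replicate 2 or 3. Without either of those libraries 5 members passed in place of 9. Without the 100 µM group edgeR called none of them (4 at an unadjusted p under 0.05), so the calls depend on that group. The slopes of MT-ND1, MT-ND4, MT-ND5, MT-ND6 and MT-CYB stayed negative in every alternative, that fit included. Over all alternatives MT-ND1 ranged from -0.0686 to -0.0495 and MT-ND5 from -0.0666 to -0.0444. A lost call does not show that a slope is absent.

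**Figure D4:**
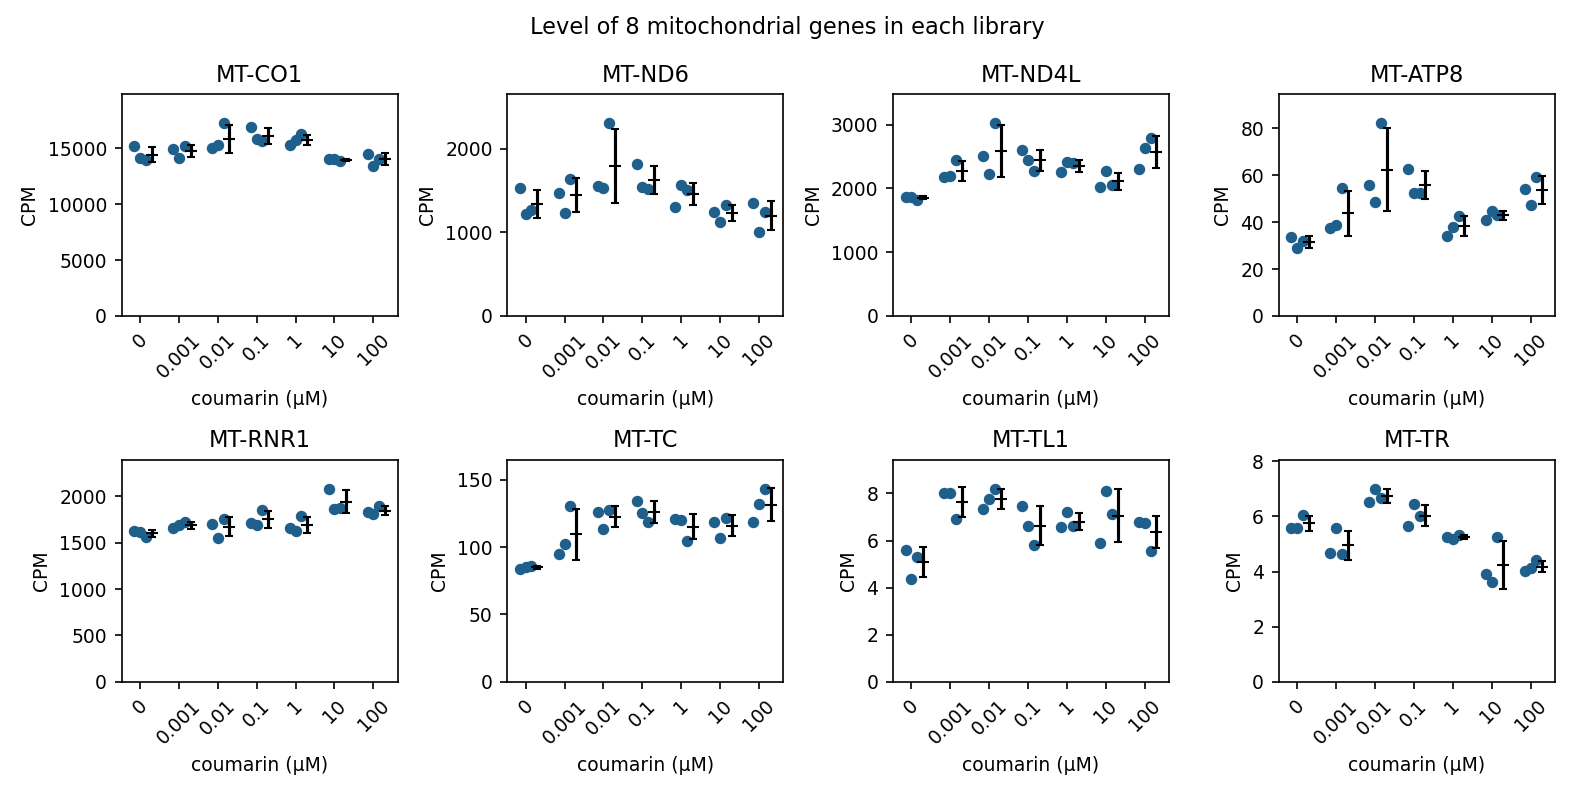
CPM of 8 mitochondrial genes in each of the 21 libraries by coumarin dose (µM), with mean ± SD (n = 3) beside the points. MT-ATP8, MT-ND4L and MT-TC lie lowest in the 3 controls, MT-RNR1 is highest at 10 µM (1939.98 ± 124 CPM (SD, n = 3)), and MT-TR has its lowest means at 10 and 100 µM.

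Of the rRNAs, MT-RNR1 rose at 10 and 100 µM and MT-RNR2 at 100 µM. MT-RNR1 had 1621, 1621 and 1557 CPM in the controls, 2083, 1861 and 1876 at 10 µM and 1835, 1808 and 1898 at 100 µM. It rose against control at both doses, by 0.28 ± 0.05 (SE) on the log2 scale at 10 µM (edgeR adjusted p = 0.000533) and by 0.21 ± 0.05 (SE) at 100 µM (edgeR adjusted p = 0.000889), and no library at these doses overlapped a control. Both calls were kept without each of the libraries compared and lost with control replicate 1 alone. Against the lower doses it rose at 10 µM (log2 change 0.19 ± 0.04 (SE), edgeR adjusted p = 0.00173), a call lost without 10 µM replicate 1, and at 100 µM (log2 change 0.12 ± 0.04 (SE), edgeR adjusted p = 0.0112), a call lost without 100 µM replicate 3. It was the only member with a rising slope that passed, 0.03401 ± 0.0102 (SE) on the log2 scale per 10-fold of dose (edgeR adjusted p = 0.0163). MT-RNR2 had 12629, 11830.4 and 11796 CPM in the controls and 13149.9, 13110.4 and 13854 at 100 µM, and rose by 0.15 ± 0.05 (SE) there on the log2 scale (edgeR adjusted p = 0.0262), a call lost without control replicate 2, control replicate 3 or 100 µM replicate 3. At 10 µM its log2 change from control was 0.11 ± 0.05 (SE) (edgeR adjusted p = 0.282). Per kb, MT-RNR2 was 4.62 ± 0.1503 (SD, n = 3) times MT-RNR1 in controls, 4.11 ± 0.149 (SD, n = 3) at 10 µM and 4.43 ± 0.0413 (SD, n = 3) at 100 µM. MT-RNR1 per kb was 17.6% ± 1.05 (SD, n = 12) of MT-CO1 at 0.001 to 1 µM, 22.4% ± 1.36 (SD, n = 3) at 10 µM and 21.3% ± 0.765 (SD, n = 3) at 100 µM, with every library at the 2 highest doses above those 12.

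Among the tRNAs, the abundant minus-strand pair MT-TN and MT-TC rose. MT-TC had 83.7, 84.97 and 86.1 CPM in the controls and 119, 132 and 144 at 100 µM, a log2 change of 0.63 ± 0.11 (SE) (edgeR adjusted p = 0.000341) that was kept in every alternative and without each library. Its 18 treated libraries, from 94.9 to 144 CPM, all lay above the 3 controls, and it passed at each dose from 0.01 µM upward and for the treated mean (log2 change 0.50 ± 0.08 (SE), edgeR adjusted p = 0.00181). The calls at 0.01, 0.1 and 100 µM were kept without each library compared, that at 1 µM was lost without 5 of the 6, and that at 10 µM without each of the 6. At 0.001 µM its log2 change was 0.36 ± 0.11 (SE) (edgeR adjusted p = 0.124). MT-TN had 124, 117 and 114 CPM in the controls and 145, 189 and 177 at 100 µM (log2 change 0.53 ± 0.13 (SE), edgeR adjusted p = 0.00681). It also passed at 0.01 and 0.1 µM and for the treated mean, where all 18 treated libraries exceeded the controls (log2 change 0.48 ± 0.10 (SE), edgeR adjusted p = 0.00918), a call lost without control replicate 2 or 3. The calls at 0.01 and 0.1 µM were lost without each of the 6 libraries compared, and that at 100 µM was kept without each. MT-TP, the third abundant tRNA, had 60.97, 59.6 and 62.3 CPM in the controls and 63.9, 66.8 and 70.2 at 100 µM, a log2 change of 0.14 ± 0.10 (SE) that did not pass (edgeR adjusted p = 0.3600).

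MT-TL1, whose gene follows MT-RNR2, had 5.58, 4.37 and 5.29 CPM in the controls and was the only member to rise at 0.001 µM, with 8.003, 8.04 and 6.92 CPM (log2 change 0.59 ± 0.12 (SE), edgeR adjusted p = 0.00434). It rose at every dose but 1 µM, and at 100 µM it had 6.800, 6.73 and 5.56 CPM (log2 change 0.32 ± 0.12 (SE), edgeR adjusted p = 0.0458), where 1 library overlapped the controls. The calls at 0.1, 10 and 100 µM were each lost without control replicate 2 or 3 and without 2 of the 3 libraries of the dose. At 1 µM its log2 change was 0.42 ± 0.12 (SE) (edgeR adjusted p = 0.0538). MT-TY, the tRNA for tyrosine next to MT-TC, rose at 0.01 µM, with 14.2, 13.5 and 12.7 CPM against 9.52, 9.67 and 10.9 in the controls (log2 change 0.42 ± 0.09 (SE), edgeR adjusted p = 0.00379), in every alternative and without each library. It also passed for the treated mean (log2 change 0.23), but that call was lost without any 1 of 15 libraries. MT-TV, the tRNA for valine between the rRNA genes, rose at 10 µM against control, with 3.28, 3.79 and 3.49 CPM against 2.71, 2.27 and 1.71 (log2 change 0.66 ± 0.16 (SE), edgeR adjusted p = 0.01800), a call lost without control replicate 2, control replicate 3, 10 µM replicate 2 or 10 µM replicate 3. At 100 µM it had 2.06, 1.801 and 1.85 CPM, below the mean of the lower doses (log2 change -0.44 ± 0.14 (SE), edgeR adjusted p = 0.0123), a call lost without 100 µM replicate 2 or 3.

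Other tRNAs fell. MT-TR had 5.58, 5.59 and 6.07 CPM in the controls and 4.01, 4.11 and 4.41 at 100 µM (log2 change -0.46 ± 0.12 (SE), edgeR adjusted p = 0.00317), and its 3 libraries at 100 µM lay below all controls and all 12 lower-dose libraries. Against the lower doses the log2 change was -0.44 ± 0.10 (SE) (edgeR adjusted p = 0.000289). At 10 µM MT-TR had 3.91, 3.603 and 5.24 CPM and fell against the lower doses (log2 change -0.40 ± 0.09 (SE), edgeR adjusted p = 0.0137), a call lost without 10 µM replicate 1 or 2. MT-TL2 had 4.41, 3.52 and 4.07 CPM in the controls and 2.86, 2.17 and 2.58 at 100 µM, where the log2 change was -0.65 ± 0.18 (SE) against control (edgeR adjusted p = 0.00591) and -0.58 ± 0.15 (SE) against the lower doses (edgeR adjusted p = 0.00193), without overlap in either comparison. The falls of MT-TR and MT-TL2 against the lower doses were kept in every alternative and without each library. MT-TY fell against the lower doses at 100 µM (log2 change -0.30 ± 0.08 (SE), edgeR adjusted p = 0.00153), again in every alternative and without each library. MT-TE, the tRNA for glutamate between MT-ND6 and MT-CYB, had 1.36, 1.26 and 0.9399 CPM at 100 µM (log2 change -0.67 ± 0.18 (SE) against the lower doses, edgeR adjusted p = 0.00362), a call lost without 100 µM replicate 3. MT-TG had 8.69, 7.53 and 9.14 CPM in the controls and 7.11, 6.49 and 7.26 at 100 µM (log2 change -0.28 ± 0.10 (SE), edgeR adjusted p = 0.0386). It also fell at 10 µM and for the treated mean, and all 3 calls were lost without control replicate 1 or 3, those at 10 and 100 µM also without replicate 1 or 2 of the dose. Against control at 100 µM the direction was therefore not shared by tRNAs on the plus strand, where MT-TL1 rose and MT-TR, MT-TL2 and MT-TG fell. On the minus strand MT-TN and MT-TC rose against control. MT-TE and MT-TY fell there against the lower doses, a comparison in which no tRNA rose, so these directions come from different references.

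Within groups the mRNAs moved together over the 21 libraries, and most varied more than abundant nuclear genes typically did. The SD of log2 CPM within groups had a median of 0.120 over the 13 mRNAs. It was 0.0594 over the 83 nuclear genes at 1000 CPM or more, whose highest was 0.133. All 15 mRNAs and rRNAs lay above that nuclear median, though MT-ATP8, at 46.9 CPM, is less abundant than those 83 genes. Over all tested genes the median SD was 0.0981. MT-CO1 (0.0641), MT-RNR1 (0.0664) and MT-RNR2 (0.0681) varied least, and MT-ATP8 (0.219) and MT-ND6 (0.202) most. Pearson's r was taken on deviations of log2 CPM from the group mean, which leaves out differences between doses. Between pairs of the 13 mRNAs it had a median of 0.81 and ranged from 0.46 to 0.97 over the 21 libraries. MT-RNR2 had a median r of 0.69 with the mRNAs and MT-RNR1 one of 0.31, while the rRNAs had an r of 0.77 with each other. MT-TN and MT-TC had an r of 0.85 with each other, and MT-TN a median r of -0.13 with the mRNAs. For MT-TC the r with single mRNAs ranged from -0.11 to 0.61. MT-TP differed, with an r of 0.51 to 0.76 with the mRNAs, 0.87 with MT-RNR2 and -0.11 with MT-TN. The library 0.01 µM replicate 3 held the highest CPM of all 21 for all 13 mRNAs and also for MT-RNR2 and 7 tRNAs. It also had the smallest scaling factor and the smallest excess of the FPKM total, whose part in its levels was not tested. The SDs and r were not recomputed without this library.

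Nuclear copies of mitochondrial genes can take reads from near-identical mitochondrial RNA. By name 407 such copies were found, of which 96 had any count and 6 were tested, and their summed mean level was 711 CPM against 72392 CPM for the 37 genes. MTATP6P1 (342 CPM), MTND2P28 (244 CPM) and MTCO1P12 (121 CPM) held nearly all of it, followed by MTND4P12 and MTND1P23 with under 3 CPM each. MTND2P28 rose at 100 µM (log2 change 0.48, edgeR adjusted p = 0.000567), where MT-ND2 had a log2 change of -0.03. MTATP6P1 had a log2 change of 0.46 at 100 µM (edgeR adjusted p = 0.0526), where MT-ATP6 had -0.19. MTCO1P12 fell at 100 µM (log2 change -0.13, edgeR adjusted p = 0.0447). These values are uncertain, as are those of the mitochondrial genes, to the extent that reads were divided between copies. MTATP8P1, the copy of MT-ATP8, averaged 0.0538 CPM; it is named after its values were seen.

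Nuclear genes that serve mitochondrial gene expression moved in part at 100 µM against control, where 27.3% of all tested genes changed. Of 20 tested genes of mitochondrial RNA processing, polyadenylation and decay, 8 rose and 2 fell. SLIRP, which binds mitochondrial mRNAs together with LRPPRC, rose by 0.62 ± 0.06 on the log2 scale (SE), HSD17B10, a subunit of the enzyme that cuts the 5′ ends of mitochondrial tRNAs, by 0.29 ± 0.05, TBRG4 by 0.22 ± 0.04, and SUPV3L1, the helicase of the mitochondrial RNA degradosome, by 0.27 ± 0.05. Of 21 genes of mitochondrial DNA replication and the nucleoid, 10 rose and 1 fell. LONP1, a matrix protease, rose by 0.47 ± 0.05, ATAD3B by 0.36 ± 0.06, RNASEH1, which removes RNA from RNA-DNA hybrids, by 0.35 ± 0.05 and ATAD3A by 0.28 ± 0.05 on the log2 scale (SE). Of 16 genes of rRNA and tRNA modification 5 rose and none fell, among them the pseudouridine synthase PUS1 (0.38 ± 0.06). Of 10 genes of mitochondrial transcription 2 rose and none fell, MTERF3 (0.25 ± 0.08) and the transcription factor TFAM (0.15 ± 0.05). Of 9 tested regulators of mitochondrial biogenesis 3 rose and none fell, with the coactivator PPARGC1B at 0.48 ± 0.07. Of 34 nuclear genes for partners of the mitochondrially encoded subunits 10 rose and none fell, with the complex I subunit NDUFS3 at 0.27 ± 0.05. The median log2 changes of the 6 lists, in the order given, were 0.12, 0.16, 0.06, 0.02, 0.06 and 0.06, against -0.0079 over all tested genes. Against the lower doses, where 33.1% of tested genes changed, 12 of the 20 RNA processing genes rose and none fell. For DNA replication and the nucleoid 11 of 21 rose and 1 fell, and for rRNA and tRNA modification 8 of 16 rose and none fell. For transcription 4 of 10 rose and 1 fell, and for biogenesis regulators 4 of 9 rose and none fell. For partners of the subunits 10 of 34 rose and 1 fell.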

How the data were processed

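Whole-number counts per gene for 21 libraries and a table of FPKM were deposited by the authors. The submitters' processing notes list HISAT2, DESeq2 and GRCh38 but no version, and the counter is not given in the sources used here. Poly(dT) beads selected the RNA, per the labels' protocols. Counts were tested with edgeR 4.0.16 in R 4.3.3 (filterByExpr, TMM scaling, robust quasi-likelihood F test, 1 fit of all 21 libraries with 14 residual degrees of freedom, 16699 genes). The slope on log10 dose was fitted to 18 treated libraries and 16522 genes. P-values were two-sided and Benjamini-Hochberg adjusted, with a threshold of 0.05. CPM used TMM-scaled library sizes, shares used plain totals, and the SE of a log2 change is its size over the square root of F. The total behind FPKM was computed from genes of at least 20 reads.

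Results were recomputed with RLE, upper-quartile, total-count and non-mitochondrial scaling, no filter, 1 CPM in 3 libraries, a fit of the compared groups alone, replicate number as block, each library left out, control replicate 1 alone, an adjusted p under 0.01, DESeq2 1.42.0, limma 3.58.1 on log2 of FPKM plus 1 or 0.1, dose rank, and the slope without 100 µM. Since the doses are evenly spaced on the log10 scale, dose rank gives the same slope test and is no separate check. The scripts were tested on simulated data. Any of the 37 genes could be named, tRNAs where called or among the 5 highest or lowest per kb, with the 5 nuclear copies of highest count and up to 4 genes of each list, those of smallest p at 100 µM. The genes, lists and rules were chosen with earlier results of these data known. Depth (26984563 to 43375429 counts) limits precision. A floor of 3 counts reflects counting error alone, as PCR duplicates of 1 molecule may be counted more than once.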

Additional observations from a re-analysis of the deposited data

How the results depend on the processing

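No called gene turned direction under any alternative run. Of 68 calls of a gene in a comparison, 29 were kept without each library and 8 of these in all alternatives. The share of counts on mitochondrial genes was recomputed with TMM-scaled library sizes and as a share of summed FPKM, and each moved by less than 1 SD. The ratio of MT-CO1 to the median mRNA per kb was also taken from the deposited FPKM. It could not differ there, since FPKM rests on the same counts and gene lengths and the library total cancels. The ratio of the share at 100 µM to that at 0 µM, just under 1 as reported, was 1.03 and 1.01 in the first 2 settings, and without each library it ranged from 0.982 to 1.02. That of all treated to 0 µM was 1.07 and 1.05, and 1.02 to 1.06 without each library. Leaving out each library gave 1 to 3 called genes at 0.001 µM, 6 to 11 at 0.01 µM, 1 to 7 at 0.1 µM, 0 to 4 at 1 µM, 1 to 3 at 10 µM, 7 to 10 at 100 µM, 2 to 9 for all treated groups, 6 to 13 for 100 µM and 0 to 9 for 10 µM against the lower doses, 13 to 18 over 7 groups (15 in the fit reported) and 5 to 11 for the slope. The counts that moved by over 1.5 times follow, as calls against 0 µM unless stated, and the cause was not tested.

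At 0.001 µM (1 reported), upper-quartile scaling, total counts and the filter of 1 CPM gave 2, no filter, only the groups compared and DESeq2 3, and control replicate 1 alone and unfiltered limma 0. At 0.01 µM (10), upper-quartile scaling, total counts, an adjusted p under 0.01 and unfiltered limma gave 6, only the groups compared 5 and control replicate 1 alone 1. At 0.1 µM (7), RLE scaling and the replicate block gave 4, upper-quartile, total-count and non-mitochondrial scaling and unfiltered limma 3, an adjusted p under 0.01 1 and control replicate 1 alone 0. At 1 µM (1), RLE, upper-quartile, total-count and non-mitochondrial scaling, the replicate block, an adjusted p under 0.01, control replicate 1 alone and unfiltered limma gave 0, with 5 to 12 genes at an unadjusted p under 0.05, no filter and filtered limma with either pseudocount gave 2, DESeq2 4 and only the groups compared 5. At 10 µM (5), no filter and the replicate block gave 3, an adjusted p under 0.01 and unfiltered limma 1 and control replicate 1 alone 0. At 100 µM (10), control replicate 1 alone gave 3 and unfiltered limma 6. For all treated groups (9), control replicate 1 alone gave 0 and an adjusted p under 0.01 4. At 100 µM against the lower doses (11) an adjusted p under 0.01 gave 7, and at 10 µM (5) it gave 1, filtered limma 2 with either pseudocount and unfiltered limma 1. For the slope (9), no filter gave 5, unfiltered limma 3, an adjusted p under 0.01 2 and the fit without 100 µM 0.

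Genes that did not pass turned direction as follows. With control replicate 1 alone the log2 change at 100 µM was -0.010 for MT-ND1, -0.014 for MT-CO2 and -0.15 for MT-ND4, and for all treated groups -0.042 for MT-ND2, -0.017 for MT-CO1, -0.048 for MT-CO2, -0.096 for MT-CO3, -0.055 for MT-ND4, -0.087 for MT-ND6 and -0.031 for MT-CYB. Upper-quartile scaling gave -0.027 for MT-ND4 at 100 µM and -0.0082 for MT-CO3 in all treated groups, total counts -0.037 and -0.025, the filter of 1 CPM -0.0023 for MT-ND4 at 100 µM, and no filter 0.0019 for MT-CO3 at 100 µM. Without each library the log2 change at 100 µM ranged from -0.079 to 0.057 for MT-ND2, -0.055 to 0.051 for MT-CO3, -0.10 to 0.028 for MT-CYB and -0.049 to 0.091 for MT-ND4, and that of all treated groups from -0.087 to 0.071 for MT-ATP6 and -0.023 to 0.083 for MT-CO3.

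The replicate numbers did not pair the libraries: deviations of same-numbered libraries correlated over 0.1 in 1 of 63 pairs (r from -0.14 to 0.13), and 9 of 21 libraries correlated best with their own number. The replicate block moved the counts by over 1.5 times only where given above. Depth limits the tRNAs most, since 13 of 22 averaged under 100 counts, and no interval could be given for reads shared with overlapping genes or nuclear copies.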
